A study of Mus musculus with 24 samples.

Results

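The amino acid transporter genes of C2C12 myotubes were described here in 24 bulk RNA-seq libraries. They were taken as the protein-coding genes with a symbol starting with Slc1a, Slc3a, Slc6a, Slc7a, Slc36a, Slc38a or Slc43a, Slc7a11 excepted, that had 10 or more normalized counts in no fewer than 6 libraries. Of 63 such genes, 31 passed this filter, among 14541 genes tested and 55487 listed. The rule works on symbols, so it also took in Slc7a6os, which is named for its position opposite Slc7a6 and is no carrier. It covers carriers of taurine (Slc6a6), creatine (Slc6a8), noradrenaline (Slc6a2) and purine nucleobases (Slc43a3). C2C12 is a mouse myoblast line that fuses into contractile myotubes when serum is lowered. The cultures were wild type and at day 5 of differentiation under 5 % O2. They were then kept for 2 h at 5 % or 1 % O2 and harvested either without stimulation (5 % CTRL, 1 % CTRL) or straight after repeated bouts of electrical stimulation that make myotubes contract (5 % STIM, 1 % STIM). The methods place these 2 h before stimulation, so stimulated cultures may have spent longer at their O2 level than unstimulated ones. Such added time and stimulation cannot be told apart here. Each of these 4 groups had 6 cultures. The differentiation medium was exchanged around the stimulation, and the sources used here do not state whether unstimulated cultures received the same exchanges, so the effect of fresh medium and that of stimulation cannot be told apart.

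Amino acid transporters set which amino acids a muscle fibre takes up, exchanges and releases. The heavy chain Slc3a2 (4F2hc, CD98) carries light chains such as Slc7a5 (LAT1) to the plasma membrane, where LAT1 imports leucine and other large neutral amino acids in exchange for glutamine, which sodium-coupled carriers such as Slc38a2 (SNAT2) and Slc1a5 (ASCT2) bring in. On lysosomes, Slc38a9 reports arginine to mTORC1, the kinase complex that drives protein synthesis and growth, and many plasma membrane carriers are known targets of ATF4, the transcription factor of the amino acid response.

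The libraries held 26541858 to 28173745 reads, and size factors, by which the authors divided the counts, lay between 0.955 and 0.992 in the 5 % O2 groups and between 1.02 and 1.05 in the 1 % O2 groups. All 17 myotube markers looked up had a mean of at least 10 in every group, and their summed level per kb of exon lay between 264368 and 316376 in the 24 libraries. The 10 myoblast and cell cycle markers were all present too, at a summed level of 850 to 1169 per kb. In 1 % CTRL against 5 % CTRL, 10 myotube markers fell and 1 rose (median log2 fold change -0.16), while 4 myoblast markers fell and 5 rose. Of all genes tested, 30.5 % fell and 29.4 % rose there. In 5 % STIM against 5 % CTRL, 4 of the 17 myotube markers were called, all lower (median -0.03), and in 1 % STIM against 5 % STIM 11 fell and 1 rose. Of all genes, 12 % fell and 9.44 % rose in the former, and 28.4 % and 29 % in the latter. Myog, which encodes the transcription factor myogenin, changed most among the myotube markers, with -0.66 in 1 % CTRL against 5 % CTRL and -0.53 in 5 % STIM against 5 % CTRL. The part of such shifts in the transporter results was not tested, and in bulk RNA fewer cells of a type and less RNA per cell cannot be told apart.

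At 5 % O2 without stimulation, RNA for the transporters was dominated by a few genes. Slc6a6, the taurine carrier, had the highest level per kb of annotated exon at 2700 ± 96.3 normalized counts per kb (mean ± SD, n = 6), followed by Slc7a5 at 2200 ± 55.0, Slc38a2 at 1890 ± 54.3 and Slc3a2 at 1697 ± 93.3. These 4 genes did not overlap with their neighbours in the order, and they made up 21.1 %, 17.2 %, 14.8 % and 13.3 % of the summed level per kb of the 31 genes. The creatine carrier Slc6a8 came next at 676 ± 30.7, and its libraries overlapped with those of Slc38a10 (614 ± 35.6), a carrier of less known function, which overlapped with Slc7a1 (569 ± 14.5), the arginine and lysine carrier CAT1, and so on to Slc1a4 (512 ± 32.2). Further down, Slc7a6os, Slc7a2, Slc1a5, Slc36a4, Slc36a1, Slc38a1 and Slc43a2 lay between 108 and 74.9 per kb, each overlapping with the next. The lowest were Slc6a2 at 3.30 ± 0.509 and Slc6a5, the neuronal glycine carrier GlyT2, at 1.31 ± 0.402 per kb. Exon length here is the union of all annotated exons, which exceeds the expressed transcript for genes with long alternative ends.

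**Figure D1:**
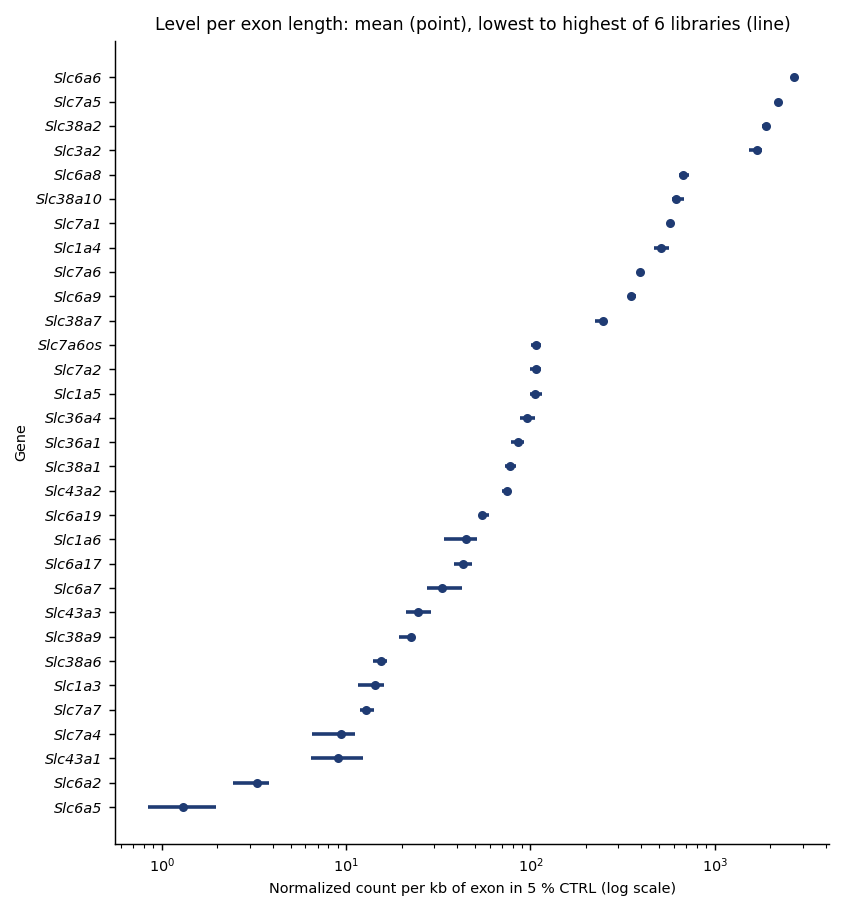
Level of the 31 members, Slc7a6os included, in 5 % CTRL, as normalized count per kb of exon on a log scale. Points are means of 6 libraries and lines run from the lowest to the highest library. Slc6a6, Slc7a5, Slc38a2 and Slc3a2 stand at 1697 to 2700 per kb, above Slc6a8 at 676, and Slc6a5 is lowest at 1.31.

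The other 32 genes of these families did not pass the filter, and 7 of them were at 0 in all libraries. The highest value in any library among them was 11.5, for Slc38a3 (SNAT3), which reached 10 in 1 library. Slc7a8 (LAT2) and Slc6a13 (the GABA carrier GAT2) also reached 10 in 1 library each, whereas Slc7a3 and Slc38a4 stayed at or below 9.63 and 9.80. Just inside the threshold, Slc6a5 reached it in 8 libraries and Slc6a2 in 22, and the other 29 members were at or above 10 in all 24.

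Of the 31 members, 21 had an entry in the RefSeq promoter table (GRCm38.p6), and the 250 bases before their annotated starts were searched on both strands for the core of the hypoxia response element (ACGTG or GCGTG), for the C/EBP-ATF response element bound by ATF4 (TGATGNAAT) and for the E-box CACGTG, which contains ACGTG. The hypoxia core was found in 14 of 21 members (66.7 %) against 61.1 % of 10063 tested genes with an entry, the E-box in 4 of 21 (19.0 %) against 9.86 %, and the ATF4 element in 0 of 21 against 0.497 %. The letters TGATGNAAT are so rare in these windows that 0 of 21 was the likely outcome for any 21 genes. This count does not show that the members lack the ATF4 element. Other spellings of it and bases after the starts were not searched. By call in 1 % CTRL against 5 % CTRL, the hypoxia core was found in 3 of the 4 members that rose, 7 of the 10 that fell and 4 of the 7 not called. The windows of 3 genes that rose there (Slc36a4, Slc1a4, Slc38a9) and of 3 that fell (Slc6a9, Slc38a2, Slc7a1) follow, 5′ to 3′ on the gene's strand, in lower case with the hypoxia core on either strand in capitals. They were picked after the values and matches were seen, as genes that moved in opposite directions under the same O2 exposure, with windows of at most 28 bases of annotated exon and with at least 1 window with and 1 without the core in each direction.
Slc36a4 (chr9:15709488-15709737, plus strand): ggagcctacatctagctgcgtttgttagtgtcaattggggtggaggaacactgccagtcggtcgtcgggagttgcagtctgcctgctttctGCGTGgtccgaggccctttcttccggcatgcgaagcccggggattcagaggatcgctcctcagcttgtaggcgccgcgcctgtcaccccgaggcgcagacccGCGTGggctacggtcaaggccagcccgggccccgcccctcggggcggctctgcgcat
Slc1a4 (chr11:20332714-20332963, minus strand): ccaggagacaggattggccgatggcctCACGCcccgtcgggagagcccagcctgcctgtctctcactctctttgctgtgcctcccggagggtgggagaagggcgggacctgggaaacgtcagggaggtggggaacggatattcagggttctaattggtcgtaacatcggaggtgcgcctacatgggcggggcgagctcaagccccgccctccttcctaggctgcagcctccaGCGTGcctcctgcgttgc
Slc38a9 (chr13:112660516-112660765, plus strand): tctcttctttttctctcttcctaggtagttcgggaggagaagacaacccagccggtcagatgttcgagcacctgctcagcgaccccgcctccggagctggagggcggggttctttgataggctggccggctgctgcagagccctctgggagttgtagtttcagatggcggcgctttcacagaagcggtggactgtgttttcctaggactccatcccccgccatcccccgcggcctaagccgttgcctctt
Slc6a9, the most downstream of its 3 annotated starts (chr4:117855297-117855546, plus strand): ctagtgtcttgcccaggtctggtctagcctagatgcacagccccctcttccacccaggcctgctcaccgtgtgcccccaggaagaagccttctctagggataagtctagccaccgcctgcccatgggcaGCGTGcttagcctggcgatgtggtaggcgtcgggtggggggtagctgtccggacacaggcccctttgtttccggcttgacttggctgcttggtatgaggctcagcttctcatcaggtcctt
Slc38a2 (chr15:96699729-96699978, minus strand): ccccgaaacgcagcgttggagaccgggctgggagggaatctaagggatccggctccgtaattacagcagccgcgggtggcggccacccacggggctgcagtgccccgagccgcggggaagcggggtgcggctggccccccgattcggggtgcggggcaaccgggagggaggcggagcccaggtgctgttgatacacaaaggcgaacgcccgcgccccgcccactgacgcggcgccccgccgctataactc
Slc7a1, the upstream one of its 2 annotated starts (chr5:148399905-148400154, minus strand): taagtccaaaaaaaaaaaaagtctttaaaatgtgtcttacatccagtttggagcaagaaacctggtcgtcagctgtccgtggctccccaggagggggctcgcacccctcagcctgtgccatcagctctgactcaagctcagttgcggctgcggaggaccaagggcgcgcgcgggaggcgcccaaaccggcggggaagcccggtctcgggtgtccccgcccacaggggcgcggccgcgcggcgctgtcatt
The core letters stand in 2 places each in the windows of Slc36a4 and Slc1a4 and in 1 place in that of Slc6a9, the member that fell furthest, and in none of the windows shown of Slc38a9, Slc38a2 and Slc7a1. The letters occur in most promoters, and a match is neither a bound site nor a cause of these values.

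In 1 % CTRL against 5 % CTRL, 17 of 31 members fell (54.8 %) and 6 rose (19.4 %), at an adjusted p under 0.05 in limma; among all genes tested, 30.5 % fell and 29.4 % rose. The median log2 fold change was -0.14 over the members and 0.00 over all genes. In 12 members the 6 libraries at 1 % O2 lay entirely below the 6 at 5 % (19.9 % of all genes did), and in 5 they lay entirely above (18.2 % did). With libraries rescaled to the same total instead of the authors' size factors, 10 members fell and 6 rose, where 23.2 % and 39 % of all genes did. The 7 members whose fall was not called then were Slc7a2, Slc7a6, Slc43a2, Slc1a6, Slc6a2, Slc6a17 and Slc6a19. In 1 % STIM against 5 % STIM, 12 members fell (38.7 %) and 7 rose (22.6 %), where 28.4 % and 29 % of all genes did, and after rescaling 11 fell and 10 rose, where 21.9 % and 37.6 % of all genes did. The median was -0.05 over the members and 0.00 over all genes. Here 10 members lay entirely below and 5 entirely above the 5 % group (18.7 % of all genes in each direction). These 2 comparisons share no library, and 12 members fell in both (23.1 % of all genes did) and 5 rose in both (22.8 % did). Slc7a6os, which is no carrier, is among the 12.

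After stimulation the members moved mostly upwards. In 5 % STIM against 5 % CTRL, 13 of 31 members rose (41.9 %) and 0 fell in limma, where 9.44 % of all genes rose and 12 % fell. DESeq2 and edgeR also called 0 lower, and at an unadjusted p under 0.05 in limma 2 members were lower. In 1 % STIM against 1 % CTRL, 12 rose (38.7 %) and 1, Slc1a4, fell, where 11.5 % and 10.8 % of all genes did. Median log2 fold changes were 0.17 and 0.05 over the members, and -0.01 and 0.00 over all genes. In total, 11 members at 5 % O2 and 9 at 1 % O2 had all stimulated libraries above all unstimulated ones (5.64 % and 5.29 % of all genes did). These comparisons share no library, and 10 members rose in both (4.61 % of all genes did).

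**Figure D2:**
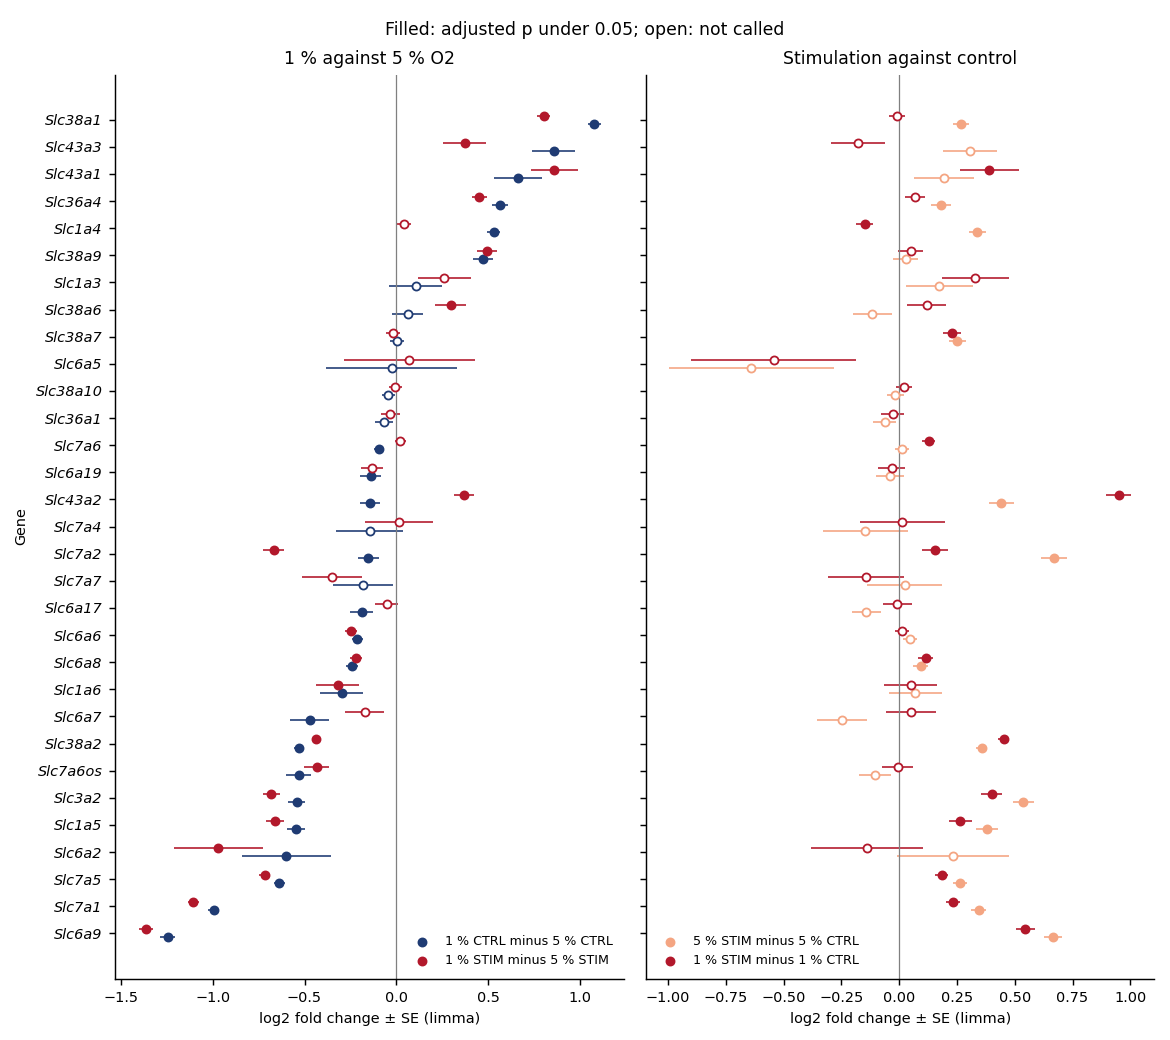
Log2 fold change with SE (limma) of the 31 members, Slc7a6os included, for 1 % against 5 % O2 (left) and for stimulation against control (right). Filled points passed an adjusted p of 0.05. The range for 1 % CTRL against 5 % CTRL runs from -1.24 for Slc6a9 to 1.08 for Slc38a1, and no filled point lies below 0 for 5 % STIM against 5 % CTRL.

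Slc3a2 and Slc7a5, the chains of the leucine exchanger, fell at 1 % O2 and rose with stimulation. Slc3a2 (ENSMUSG00000010095, chr19:8706882-8723369) had normalized counts of 5413 to 6356 (median 6068) in 5 % CTRL, 3528 to 4297 (median 4222) in 1 % CTRL, 8233 to 9028 (median 8714) in 5 % STIM and 4857 to 5916 (median 5419) in 1 % STIM. Slc7a5 (ENSMUSG00000040010, chr8:121881150-121907694) lay at 7886 to 8434 (median 8151) in 5 % CTRL, 4903 to 5394 (median 5274) in 1 % CTRL, 9323 to 10343 (median 9793) in 5 % STIM and 5680 to 6152 (median 6019) in 1 % STIM. For both genes, the 2 groups of each of the 4 comparisons did not overlap. The log2 fold change of 1 % CTRL against 5 % CTRL was -0.54 ± 0.046 (SE) for Slc3a2 and -0.64 ± 0.0294 for Slc7a5, and that of 1 % STIM against 5 % STIM was -0.68 ± 0.046 and -0.72 ± 0.0294, with adjusted p of at most 2.02e-11 in limma. With stimulation at 5 % O2, Slc3a2 rose by 0.54 and Slc7a5 by 0.26 on the log2 scale, and at 1 % O2 by 0.40 and 0.18. Mean RNA of both chains was lower in stimulated myotubes at 1 % O2 than in unstimulated ones at 5 % O2, at 5428 against 5990 for Slc3a2 and 5955 against 8156 for Slc7a5. This pair of groups was not tested, and its libraries overlapped for Slc3a2.

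Of the other light chains that pair with Slc3a2, Slc7a6 and Slc7a7 are members. Slc7a6 (y+LAT2) had means of 1803 ± 27.3 in 5 % CTRL and 1689 ± 25.4 in 1 % CTRL (SD, n = 6). Those of the stimulated groups were 1819 ± 84.6 at 5 % O2 and 1845 ± 28.3 at 1 % O2. Its log2 fold changes were -0.09 in 1 % CTRL against 5 % CTRL (adjusted p = 0.00578, limma) and 0.13 in 1 % STIM against 1 % CTRL (adjusted p = 0.00119), and it passed in neither of the other comparisons. The fall was not called after rescaling. Slc7a7 (y+LAT1) was low, at means of 34.2 to 44.1, and passed in no comparison; its log2 fold change of 1 % STIM against 5 % STIM was -0.35 ± 0.164 (adjusted p = 0.0684, limma). Its exons overlap in part those of Oxa1l on the opposite strand, a gene with means of 966 to 1081. RSEM was run at its defaults by the authors, so reads of the strands cannot be told apart.

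Of the carriers of arginine and lysine, Slc7a1 fell furthest at 1 % O2. Slc7a1 (ENSMUSG00000041313, chr5:148327410-148399904) lay at 6388 to 6871 (median 6520) in 5 % CTRL, 3179 to 3464 (median 3284) in 1 % CTRL, 8203 to 8486 (median 8298) in 5 % STIM and 3594 to 4212 (median 3879) in 1 % STIM. Its highest 1 % library stood far below its lowest 5 % library, with or without stimulation. The log2 fold change was -0.99 ± 0.031 in 1 % CTRL against 5 % CTRL (adjusted p = 7.41e-24, limma) and -1.11 ± 0.031 in 1 % STIM against 5 % STIM (4.67e-25). Stimulation raised it by 0.34 at 5 % O2 and by 0.23 at 1 % O2. Slc7a2 (CAT2; ENSMUSG00000031596, chr8:40862396-40922308), which shares its substrates, lay at 910 to 1047 (median 971) in 5 % CTRL, 819 to 1024 (median 852) in 1 % CTRL, 1340 to 1772 (median 1577) in 5 % STIM and 880 to 1029 (median 997) in 1 % STIM. Only 5 % STIM stood apart from the other 3 groups of Slc7a2. Its log2 fold change was 0.67 ± 0.0562 with stimulation at 5 % O2 (5.88e-11) and 0.15 ± 0.0562 at 1 % O2 (adjusted p = 0.0449, limma), and -0.67 ± 0.0562 in 1 % STIM against 5 % STIM (7.99e-12). The call at 1 % O2 was lost without any one of 13 of the 24 libraries (5 % CTRL replicates 2, 3 and 4, 1 % CTRL replicates 2, 3, 4 and 6, 5 % STIM replicate 6 and 1 % STIM replicates 1, 2, 3, 4 and 6; adjusted p of 0.0501 to 0.109), with no filter, and in edgeR (0.053) and voom (0.0523). The small fall of Slc7a2 in 1 % CTRL (-0.15) was not called after rescaling (-0.07, adjusted p = 0.276), nor without 5 % CTRL replicate 5 or 1 % CTRL replicate 3 or 6 (0.0503 to 0.0548). Slc7a4, a related gene without established transport activity, had means of 35.1 to 38.8 and passed nowhere, and 13.3 % of its exons overlap those of P2rx6 on the other strand.

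Among sodium-coupled carriers of small neutral amino acids, Slc38a2 and Slc38a1 moved in opposite directions at 1 % O2. Slc38a2 (SNAT2; ENSMUSG00000022462, chr15:96687392-96699730) lay at 15955 to 17360 (median 16716) in 5 % CTRL, 11338 to 12146 (median 11474) in 1 % CTRL, 20965 to 21768 (median 21435) in 5 % STIM and 15396 to 16089 (median 15787) in 1 % STIM. Slc38a1 (SNAT1; ENSMUSG00000023169, chr15:96571418-96642913), its neighbour on chromosome 15, lay at 1255 to 1438 (median 1317) in 5 % CTRL, 2702 to 2986 (median 2735) in 1 % CTRL, 1510 to 1683 (median 1588) in 5 % STIM and 2706 to 2902 (median 2774) in 1 % STIM. In neither gene did a 1 % group overlap with its 5 % counterpart. The log2 fold change of 1 % CTRL against 5 % CTRL was -0.53 ± 0.0244 for Slc38a2 (adjusted p = 2.93e-19, limma) and 1.08 ± 0.0346 for Slc38a1 (1.58e-23). In 1 % STIM against 5 % STIM these were -0.44 and 0.80. Stimulation raised Slc38a2 by 0.36 at 5 % O2 and by 0.45 at 1 % O2 on the log2 scale. It raised Slc38a1 by 0.27 at 5 % O2, and at 1 % O2 the value was -0.01 (adjusted p = 0.904).

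The exchangers Slc1a5 and Slc1a4, which trade alanine, serine, cysteine and, for Slc1a5, glutamine, also parted. Slc1a5 (ASCT2; ENSMUSG00000001918, chr7:16781340-16798274) lay at 415 to 479 (median 438) in 5 % CTRL, 284 to 318 (median 303) in 1 % CTRL, 551 to 596 (median 573) in 5 % STIM and 339 to 375 (median 364) in 1 % STIM. All 4 groups of Slc1a5 were separate from each other. Its log2 fold change was -0.55 ± 0.048 in 1 % CTRL against 5 % CTRL (adjusted p = 6.6e-12, limma), -0.66 in 1 % STIM against 5 % STIM, 0.38 with stimulation at 5 % O2 and 0.26 at 1 % O2. Slc1a4 (ASCT1; ENSMUSG00000020142, chr11:20302180-20332713) lay at 1847 to 2224 (median 1985) in 5 % CTRL, 2792 to 3000 (median 2911) in 1 % CTRL, 2408 to 2687 (median 2536) in 5 % STIM and 2510 to 2797 (median 2596) in 1 % STIM. Only 5 % CTRL stood below all other libraries of Slc1a4, and the stimulated groups overlapped. Its log2 fold change was 0.53 ± 0.0362 in 1 % CTRL against 5 % CTRL (1.25e-14, limma), and 0.04 in 1 % STIM against 5 % STIM (adjusted p = 0.34; 0.11 and 0.011 after rescaling).

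Slc6a9, the glycine carrier GlyT1, had the lowest ratio of all members at 1 % O2. Slc6a9 (ENSMUSG00000028542, chr4:117834506-117875198) lay at 1731 to 1920 (median 1804) in 5 % CTRL, 709 to 795 (median 764) in 1 % CTRL, 2750 to 2976 (median 2860) in 5 % STIM and 1041 to 1253 (median 1078) in 1 % STIM. No 2 of its groups overlapped, and both 1 % groups lay below both 5 % groups. Its level in 1 % CTRL was 0.422 of that in 5 % CTRL (log2 fold change -1.24 ± 0.0399, adjusted p = 1.56e-23, limma), and in 1 % STIM 0.389 of that in 5 % STIM. With stimulation it rose 1.59-fold at 5 % O2 and 1.46-fold at 1 % O2. Of its exons, 27.8 % overlap those of Ccdc24 on the opposite strand, a gene whose means were 23.1 and 29.4 in 5 % and 1 % CTRL and 28.4 and 34.4 in 5 % and 1 % STIM.

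The other amino acid carriers of the SLC6 family were less abundant. Slc6a7 (a proline carrier) had means of 113 ± 19.2 in 5 % CTRL and 80.9 ± 7.43 in 1 % CTRL (SD, n = 6), Slc6a17 (a vesicular carrier of neutral amino acids) 444 ± 35.2 and 390 ± 23.9, and Slc6a19 (B0AT1) 275 ± 12.8 and 249 ± 14.2. All 3 fell in this comparison, by 0.47, 0.19 and 0.14 on the log2 scale, and were called in no other. After rescaling, the falls of Slc6a17 and Slc6a19 were not called, and in DESeq2 that of Slc6a19 was not. Slc6a5 was at means of 5.95 to 9.43 and passed nowhere. The noradrenaline carrier Slc6a2, at means of 12.9 to 25.2, had log2 fold changes of -0.60 ± 0.242 in 1 % CTRL against 5 % CTRL (adjusted p = 0.0325, limma) and -0.97 ± 0.242 in 1 % STIM against 5 % STIM. The former was not called after rescaling.

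Taurine and creatine, which muscle stores as an osmolyte and an energy buffer, enter through Slc6a6 and Slc6a8. Slc6a6 (ENSMUSG00000030096, chr6:91684053-91759066) lay at 21869 to 23617 (median 22931) in 5 % CTRL, 18536 to 21288 (median 19581) in 1 % CTRL, 23071 to 23928 (median 23577) in 5 % STIM and 18621 to 20476 (median 20086) in 1 % STIM. Slc6a8 (ENSMUSG00000019558, chrX:73673150-73682502) lay at 3338 to 3768 (median 3527) in 5 % CTRL, 2853 to 3099 (median 2969) in 1 % CTRL, 3596 to 3862 (median 3781) in 5 % STIM and 2961 to 3337 (median 3275) in 1 % STIM. In both genes the 1 % groups lay below their 5 % counterparts without overlap. Their log2 fold changes at 1 % O2 were -0.21 ± 0.0301 and -0.24 ± 0.0324 without stimulation, and -0.25 and -0.22 with it (adjusted p of at most 5.13e-07, limma). With stimulation Slc6a6 had 0.05 at 5 % O2 and 0.01 at 1 % O2 and passed in neither, although it passed at 5 % O2 with the slope of each library on gene length as a covariate (0.08, adjusted p = 0.0155). Slc6a8 rose by 0.09 and 0.11, and the call at 5 % O2 (adjusted p = 0.0364) was lost with no filter and without any one of 7 libraries, replicates 2, 3 and 4 of 5 % CTRL and 2, 3, 4 and 6 of 5 % STIM (0.0525 to 0.103).

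**Figure D3:**
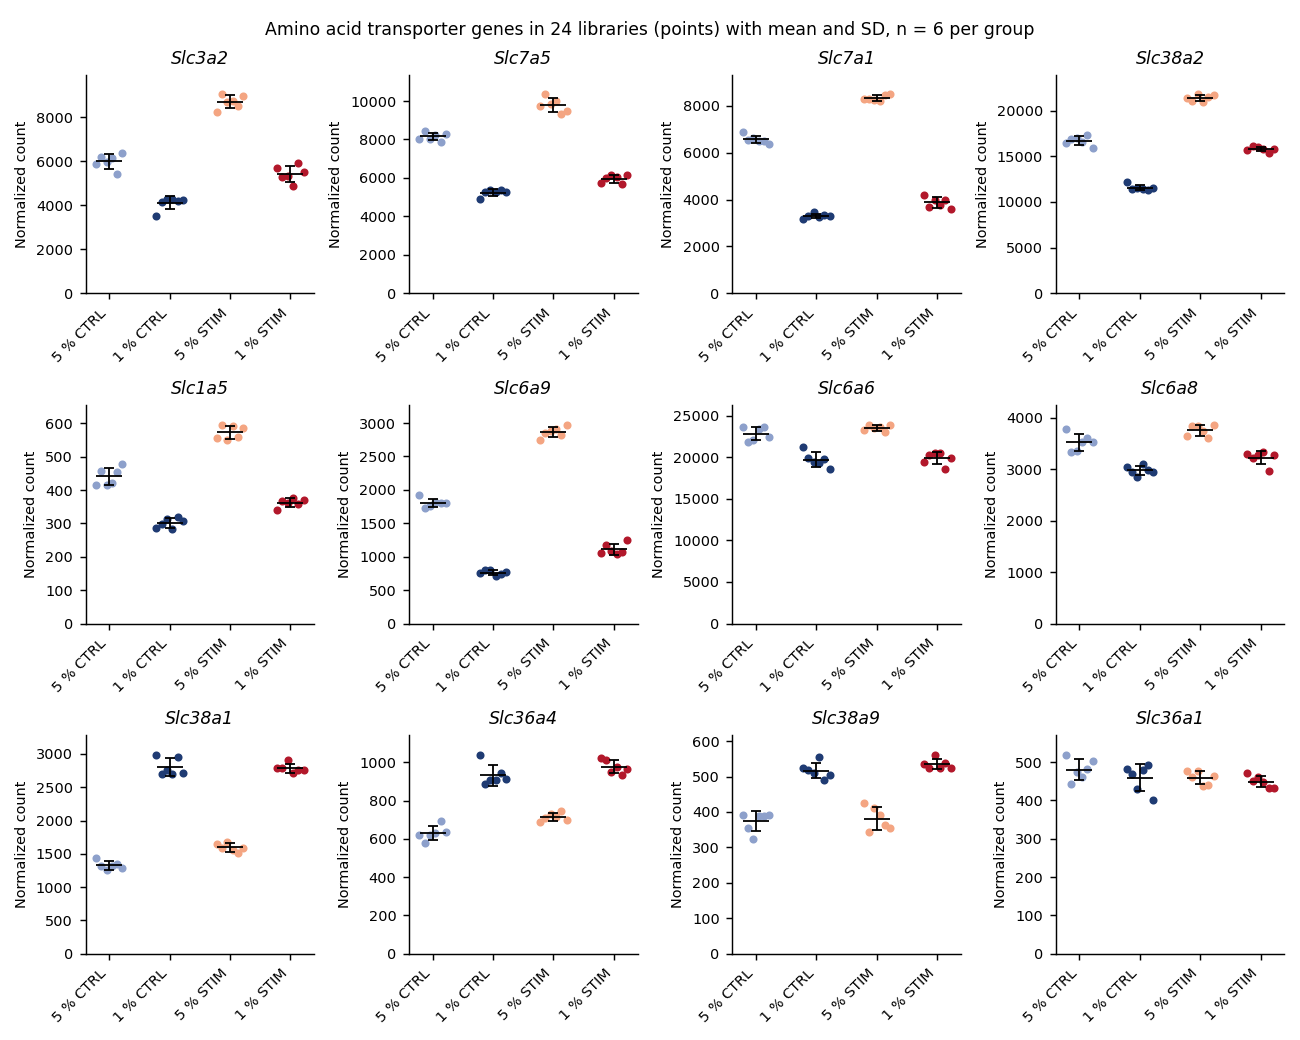
Normalized counts of 12 transporter genes in the 24 libraries (points), with the mean and SD of each group of 6; every axis starts at 0. The top rows show genes that fell at 1 % O2, such as Slc7a1 with 3179 to 3464 in 1 % CTRL against 6388 to 6871 in 5 % CTRL, and the bottom row shows Slc38a1, Slc36a4 and Slc38a9, which rose, and Slc36a1, which passed in no comparison.

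Slc38a9 and Slc36a4 rose at 1 % O2 with and without stimulation, whereas Slc36a1 passed in no comparison. Slc38a9 (ENSMUSG00000047789, chr13:112660751-112738749), the lysosomal arginine sensor, lay at 324 to 392 (median 389) in 5 % CTRL, 490 to 554 (median 515) in 1 % CTRL, 344 to 425 (median 376) in 5 % STIM and 524 to 561 (median 531) in 1 % STIM. Slc36a4 (PAT4; ENSMUSG00000043885, chr9:15709738-15743361), a carrier of proline and tryptophan, lay at 576 to 693 (median 627) in 5 % CTRL, 885 to 1039 (median 911) in 1 % CTRL, 685 to 745 (median 711) in 5 % STIM and 936 to 1021 (median 972) in 1 % STIM. Slc36a1 (PAT1; ENSMUSG00000020261, chr11:55204350-55236330), which exports amino acids from lysosomes with protons, lay at 443 to 519 (median 478) in 5 % CTRL, 402 to 492 (median 475) in 1 % CTRL, 436 to 477 (median 463) in 5 % STIM and 432 to 471 (median 449) in 1 % STIM. The 1 % groups lay above the 5 % groups in Slc38a9 and Slc36a4, whereas all 4 groups of Slc36a1 overlapped. The log2 fold change of 1 % CTRL against 5 % CTRL was 0.47 ± 0.0549 for Slc38a9 (adjusted p = 4.42e-09, limma), 0.57 ± 0.0426 for Slc36a4 (1.5e-13) and -0.07 ± 0.0507 for Slc36a1 (0.261). In 1 % STIM against 5 % STIM these were 0.49, 0.45 and -0.03. Stimulation raised Slc36a4 by 0.18 at 5 % O2, and Slc38a9 had 0.03 and 0.05 in the stimulation comparisons and passed in neither.

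Slc38a7 (SNAT7), which exports glutamine from lysosomes, was the member that rose with stimulation at both O2 levels and was called in neither O2 comparison. Its means were 1021 ± 59.8 and 1023 ± 35.8 in 5 % and 1 % CTRL, and 1215 ± 33.1 and 1200 ± 53.3 in 5 % and 1 % STIM (SD, n = 6). The log2 fold change with stimulation was 0.25 ± 0.0387 at 5 % O2 (adjusted p = 6.35e-06, limma) and 0.23 ± 0.0387 at 1 % O2 (2.16e-05). Slc38a10 stayed between means of 3819 and 3942 and passed nowhere. Slc38a6 rose in 1 % STIM against 5 % STIM alone (0.30 ± 0.0846, means 137 and 112), and 30.8 % of its exon words of 75 bases also occur in other genes, so its counts are uncertain.

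The SLC43 genes, facilitators of large neutral amino acids except for Slc43a3, were each higher in 1 % STIM than in 5 % STIM. Slc43a2 (LAT4; ENSMUSG00000038178, chr11:75531694-75577575) lay at 708 to 772 (median 757) in 5 % CTRL, 621 to 742 (median 690) in 1 % CTRL, 930 to 1158 (median 1009) in 5 % STIM and 1232 to 1530 (median 1301) in 1 % STIM. Slc43a1 (LAT3; ENSMUSG00000027075, chr2:84838850-84863594) lay at 36.6 to 70.5 (median 53.9) in 5 % CTRL, 67.6 to 94.1 (median 82.0) in 1 % CTRL, 53.2 to 64.9 (median 58.4) in 5 % STIM and 88.2 to 121 (median 106) in 1 % STIM. Slc43a3 (ENSMUSG00000027074, chr2:84936579-84958509) lay at 94.7 to 130 (median 108) in 5 % CTRL, 156 to 246 (median 196) in 1 % CTRL, 108 to 158 (median 138) in 5 % STIM and 134 to 217 (median 172) in 1 % STIM. In Slc43a2 the stimulated groups were apart from the unstimulated ones and from each other, and in Slc43a1 and Slc43a3 several groups overlapped. With stimulation Slc43a2 rose by 0.44 ± 0.0545 at 5 % O2 (adjusted p = 1.26e-07, limma) and by 0.95 ± 0.0545 at 1 % O2 (1.18e-15), the largest rise of a member in that comparison. Its fall in 1 % CTRL against 5 % CTRL (-0.14, adjusted p = 0.0244) was not called after rescaling (-0.06, 0.324) or without 1 % CTRL replicate 3 or 6 (0.0741 and 0.0752). Of the exons of Slc43a2, 9.18 % overlap those of the antisense gene Gm45606, counted at means of 15.8 in 5 % CTRL and 37.3 in 1 % STIM. In 1 % CTRL against 5 % CTRL, Slc43a1 rose by 0.66 ± 0.129 and Slc43a3 by 0.86 ± 0.117. Slc43a1 also rose with stimulation at 1 % O2 (0.39, adjusted p = 0.0252), a call lost without 1 % CTRL replicate 2 or 3 or 1 % STIM replicate 3 or 6 (0.0587 to 0.0712).

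The remaining members were the glutamate carriers Slc1a3 (GLAST) and Slc1a6 (EAAT4) and Slc7a6os. Slc1a3, at means of 123 to 166, passed nowhere. Slc1a6, at means of 77.7 to 100, fell in 1 % CTRL against 5 % CTRL (-0.30, adjusted p = 0.0272, limma) and in 1 % STIM against 5 % STIM (-0.32, 0.0189), and neither fall was called after rescaling. Slc7a6os fell by 0.53 and 0.43 on the log2 scale in these comparisons, while Slc7a6 changed by -0.09 and 0.02. In all, 25 of 31 members were called in at least 1 of the 4 comparisons (74.6 % of all genes were), and the 6 that were not were Slc1a3, Slc36a1, Slc38a10, Slc6a5, Slc7a4 and Slc7a7.

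Whether the response to stimulation differed between the O2 levels was tested by the interaction, the log2 response at 1 % O2 minus that at 5 % O2. It called 4 of 31 members, 1 higher (5.88 % of all genes) and 3 lower (5.43 %). Slc43a2 rose more at 1 % O2 (difference 0.51 ± 0.0771, adjusted p = 1.77e-05, limma). Slc7a2 rose less at 1 % O2 (-0.52 ± 0.0795, 2.97e-05). Slc1a4, higher in 1 % CTRL already, rose by 0.34 at 5 % O2 and fell by 0.15 at 1 % O2 (-0.49 ± 0.0513, 1.67e-08), and Slc38a1 rose at 5 % O2 and had -0.01 at 1 % O2 (-0.28 ± 0.0489, 0.000163). Slc7a2 was also called lower in both O2 comparisons and higher in both stimulation comparisons. The other members with these calls were Slc3a2, Slc7a5, Slc7a1, Slc1a5, Slc6a9, Slc38a2 and Slc6a8. In this order, their differences were -0.14, -0.08, -0.11, -0.11, -0.12, 0.10 and 0.02. None of these passed (adjusted p of 0.0704 to 0.821, limma). DESeq2 called 7 members and limma with array weights 8, where 12.7 % and 16.6 % of all genes were called against 11.3 % here, with Slc38a2, Slc43a3 and Slc7a6 added in both and Slc3a2 in the latter.

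**Figure D4:**
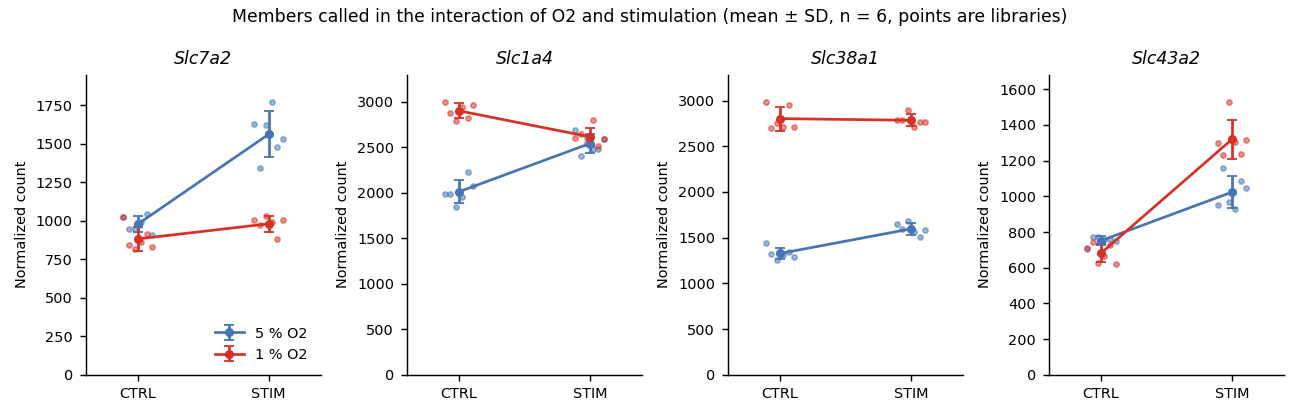
Normalized counts of the 4 members called in the interaction, without (CTRL) and with (STIM) stimulation, at 5 % O2 (blue) and 1 % O2 (red); small points are libraries, large points and bars are means and SD of 6. Slc7a2 is high in 5 % STIM alone (1340 to 1772), the lines of Slc1a4 meet with stimulation, Slc38a1 is higher at 1 % O2 throughout, and Slc43a2 is highest in 1 % STIM (1232 to 1530).

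Of the genes of the amino acid response and targets of ATF4, a list of 24 that holds no member, 15 fell and 5 rose in 1 % CTRL against 5 % CTRL, with a median log2 fold change of -0.30. Among all genes, 30.5 % fell and 29.4 % rose. In 1 % STIM against 5 % STIM, 18 fell and 4 rose (median -0.46), where 28.4 % and 29 % of all genes did. With stimulation at 5 % O2, 23 rose and all 24 were above 0 (median 0.51), and at 1 % O2 15 rose and 2 fell (median 0.26). Of all genes, 9.44 % rose at 5 % O2, and 11.5 % rose and 10.8 % fell at 1 % O2. Atf4 itself lay at 8903 to 10561 in 5 % CTRL, 5481 to 7026 in 1 % CTRL, 11724 to 12804 in 5 % STIM and 7593 to 8827 in 1 % STIM, so that no 2 groups overlapped. Its log2 fold change was -0.59 in each O2 comparison and 0.37 and 0.36 in the stimulation comparisons, beside -0.54, -0.68, 0.54 and 0.40 for Slc3a2. Not all members went this way. In the same order, Slc38a1 had 1.08, 0.80, 0.27 and -0.01, and Slc43a2 had -0.14, 0.37, 0.44 and 0.95. Asns, asparagine synthetase, had -0.36, -0.40, 0.19 and 0.15. Trib3, a pseudokinase that restrains ATF4, rose by 1.74 at 5 % O2 and by 1.12 at 1 % O2 with stimulation, and Ddit4, an inhibitor of mTORC1 that is also induced by hypoxia, rose by 2.40 in 1 % CTRL against 5 % CTRL. These comparisons share groups, and the values are set side by side only.

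Among 15 other amino acid carriers tested, of lysosomes, mitochondria and other families, 10 rose and 3 fell in 1 % CTRL against 5 % CTRL (median 0.21), with Slc25a13, a mitochondrial aspartate and glutamate exchanger, at 0.84 and Ctns, the lysosomal cystine exporter, at 0.53. Of all genes, 29.4 % rose and 30.5 % fell there. Slc16a10 (TAT1), a carrier of aromatic amino acids, rose by 0.34 with stimulation at 5 % O2 and by 0.69 at 1 % O2. Of 31 genes of amino acid sensing at the lysosome, 13 rose and 7 fell in 1 % CTRL against 5 % CTRL, where 29.4 % and 30.5 % of all genes did. The leucine sensor Sesn2 rose by 0.87 and 0.77 and its relative Sesn1 by 0.55 and 0.90 with stimulation at 5 % and 1 % O2. Sesn2 is also on the list of the amino acid response and is counted in both lists. Of 25 enzymes of amino acid metabolism, 9 rose and 8 fell in 1 % CTRL against 5 % CTRL, with Bcat1, the cytosolic transaminase of leucine, isoleucine and valine, at -0.94. These enzyme counts lie near the shares of all genes, 29.4 % and 30.5 %. Gpt2, the mitochondrial alanine transaminase, rose by 0.65 with stimulation at 5 % O2 and had -1.10 in 1 % STIM against 5 % STIM.

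**Figure D5:**
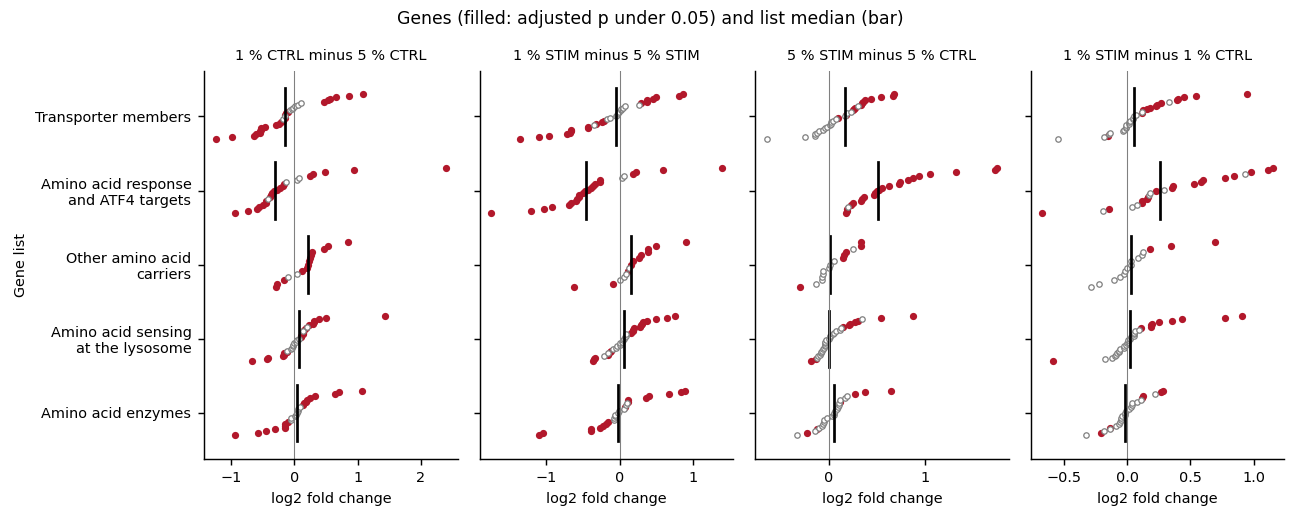
Log2 fold change of each gene (filled: adjusted p under 0.05) in 4 comparisons for the 31 members and 4 lists of genes of amino acid biology, with the list median as a bar. The list of the amino acid response has medians of -0.30 and -0.46 for 1 % against 5 % O2 and of 0.51 and 0.26 for stimulation, and the members have medians of -0.14, -0.05, 0.17 and 0.05.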

How the data were processed

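Poly(A) RNA of 24 C2C12 cultures was measured by stranded, single-end sequencing. Per the submitters' processing notes and the study's methods, the authors checked reads with FastQC 0.11.7, aligned them to GRCm38 with STAR 2.5.4b and estimated gene counts with RSEM 1.3.0 at its defaults. The expression signal they deposited is each count scaled by DESeq2 size factors. Although RSEM estimates need not be whole, all values (100 %) lay within 0.01 reads of a whole multiple of the smallest value above 0 in their library, taken as 1 read, and these whole reads entered the count tests. Another deposited table, with fold changes, p-values and calls from the authors' own tests, was not used.

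Groups followed the labels. Genes with 10 or more normalized counts in no fewer than 6 libraries were tested (14541) on log2(normalized count + 1) in 1 limma 3.58.1 fit of the 4 groups with trend and robust variances (R 4.3.3), and a gene was called where its p-value, adjusted over all genes by Benjamini-Hochberg, was under 0.05. Fold changes are on that scale and understate those of low genes. The members, gene lists and tests were chosen with earlier results of these data known, so list counts are descriptions. Values per library were given for Slc3a2, Slc7a5, Slc38a2, Slc7a1, Slc1a5, Slc6a6, Slc6a8, Slc38a9 and Slc36a1, for up to 5 called members that rose most and 5 that fell most in each comparison if the higher group averaged 100 or more, and for members called in the interaction. From the other lists, up to 3 called genes with the largest change could be named, and Atf4, Asns and, in some comparisons, others were added after their values were seen. Lengths, overlaps and coordinates came from GENCODE M21 (GRCm38). Alternatives were a pseudocount of 10, no filter, an adjusted p under 0.01, the compared groups alone, equal library totals, edgeR 4.0.16, DESeq2 1.42.0, voom, array weights, a length covariate, a replicate block and each library left out. The spread between replicates exceeded sampling noise.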

Additional observations from a re-analysis of the deposited data

Results flagged for a closer look

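For 4 members the response to stimulation differed between the O2 levels by the interaction test in limma, as 1 % minus 5 % O2 on the log2 scale: -0.49 for Slc1a4, -0.28 for Slc38a1, -0.52 for Slc7a2 and 0.51 for Slc43a2. In 8 of 124 member and group combinations, 1 library lay far from the other 5 of its group by the gap between it and its nearest neighbour, which chance gives in about 1 in 20 groups. Replicate 1 of 1 % CTRL was the library in 3 of these, with 3528 normalized counts of Slc3a2 (4165 to 4297 in the others), 4903 of Slc7a5 (5262 to 5394) and 12146 of Slc38a2 (11338 to 11505). This library as a whole stood apart by its slope on gene length. The slope was 0.0945, the highest of all libraries, against -0.0367 to -0.0125 in the others of 1 % CTRL. Exon lengths are 3529 bases for Slc3a2, 3708 for Slc7a5 and 8838 for Slc38a2. The part of the slope in these counts was not tested. Replicate 5 of 1 % STIM had 2961 of Slc6a8 (3206 to 3337 in the others) and 880 of Slc7a2 (975 to 1029). Replicate 3 of 1 % STIM had 1530 of Slc43a2 (1232 to 1315). Slc6a19 was at 299 in replicate 6 of 5 % CTRL (263 to 274 in the others) and at 223 in replicate 2 of 1 % CTRL (248 to 262).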

How the results depend on the processing

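Over 85 member results (17 genes in 5 comparisons) and their alternatives, 2973 of 3043 values kept their direction and their side of the threshold, 70 changed side and 0 reversed a called direction. The 17 genes are those with values per library, many of them picked for large called changes, so these counts do not describe weakly called members. Slc7a6, Slc1a6, Slc6a2, Slc6a17 and Slc6a19, whose falls in 1 % CTRL were lost after rescaling, are not among them. Of the values that kept their side, 1994 came from leaving out 1 library. In a pairwise comparison, leaving out a library of neither compared group cannot change the fold change or its direction, only its p-value. The stricter threshold, no filter and the compared groups alone also leave the fold change as it was. For these settings the kept direction was fixed in advance. The count of members called in the interaction was 4, against 7 in DESeq2 and 8 with array weights, where the cause was not tested. Leaving out 1 library gave 20 to 23 members called in 1 % CTRL against 5 % CTRL, 12 to 15 in 5 % STIM against 5 % CTRL, 19 to 21 in 1 % STIM against 5 % STIM, 11 to 14 in 1 % STIM against 1 % CTRL and 4 to 6 in the interaction. With every library, 59.9 %, 21.4 %, 57.4 %, 22.3 % and 11.3 % of all genes were called in this order. These shares move too: without 1 % CTRL replicate 1 the interaction called 1280 genes higher and 1036 lower, against 855 and 790 with it. That library had the highest slope on gene length of all libraries. Without replicate 1 of 1 % CTRL the interaction was called for Slc3a2 (-0.18, adjusted p = 0.0166, limma) and Slc38a2 (0.11, 0.0211), the latter also without replicate 6 of 5 % CTRL (0.11, 0.0307). Without 1 % STIM replicate 6 it was called for Slc6a9 (-0.15, 0.044), and without replicate 1 for Slc7a1 (-0.14, 0.0311). For Slc43a3 the interaction (-0.48, 0.0546) was called without any one of 6 libraries (0.0234 to 0.0456), 5 % CTRL replicate 1, 1 % CTRL replicate 4, 5 % STIM replicates 2 and 6 and 1 % STIM replicates 2 and 6. Its response to stimulation at 5 % O2 (0.30, 0.0611) was called without any one of 6 (0.0257 to 0.0495), 5 % CTRL replicate 1, 1 % CTRL replicates 1 and 4, 5 % STIM replicates 2 and 6 and 1 % STIM replicate 1. Equal library totals moved the median log2 fold change of all genes by up to 0.08. Same-numbered libraries showed little shared deviation (correlations of -0.148 to 0.155, median 0.006, against a median of 0.001 in other pairs). Of 24 libraries, 7 correlated best with their own number, and the count that chance gives was not computed. With a replicate block, 23, 13, 20 and 14 members were called in the 4 comparisons in the order above and 4 in the interaction. Of all genes, 60 %, 21.9 %, 57.4 %, 22.8 % and 11.8 % were called with that block, and no named result changed side. Members with means under 50 rest on few reads, so small changes in them may have gone uncalled at this depth. No limit of detection was computed, and Slc6a2 among them was called at log2 fold changes of -0.60 and -0.97.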
